A study of Homo sapiens with 12 samples.

Results

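The integrated stress response is represented here by 10 genes matched by symbol to the Ensembl identifiers of the deposited tables: *ATF4*, *DDIT3*, *ATF3*, *TRIB3*, *CHAC1*, *SESN2*, *DDIT4*, *PPP1R15A*, *CEBPB* and *NUPR1*. They come from a fixed list that was chosen with earlier results of these data known. All 10 were found among the 58302 genes of the RNA-seq table and all 10 were among the 15826 genes with enough counts to be tested. Oral squamous cell carcinoma (OSCC) cells were grown with 100 nM rapamycin, an inhibitor of the kinase complex mTORC1 that is used to induce autophagy, or without it. For RNA-seq there were 4 libraries (rapamycin, n = 2, and control, n = 2), and the duration of treatment is not given for them. MeRIP-seq uses an antibody to enrich RNA fragments that carry N6-methyladenosine (m6A) and sequences them beside the input RNA. It was done once per condition in HSC3 and in CAL33, both established human OSCC lines, with and without 100 nM rapamycin for 3 days.

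In the integrated stress response, stress-sensing kinases phosphorylate the initiation factor eIF2. Protein synthesis then falls in general, while the mRNA of the transcription factor ATF4 is translated more through its upstream open reading frames. ATF4 switches on further transcription factors, amino acid supply, inhibitors of mTORC1, and feedback genes that restore eIF2. mTORC1 itself also promotes ATF4 translation, so inhibitors of mTORC1 and stress act on this pathway from different sides.

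The labels give HSC3 for both rapamycin RNA-seq libraries and CAL33 for both control RNA-seq libraries, whereas the MeRIP-seq titles use number 1 for HSC3 and number 2 for CAL33, whatever the treatment. The RNA-seq libraries resembled each other by number and not by treatment. Across genes, log2 CPM (counts scaled by library size) correlated at 0.97 and 0.96 between libraries of the same number and at no more than 0.81 between the others. If the cell line labels are right, cell line and treatment cannot be told apart in the RNA-seq data, so the libraries are named here by treatment and number. Nothing in the labels says that the 2 libraries of a treatment came from separate cultures. Without a term for the library number, p-values set the treatment difference against the spread between those 2 libraries. With that term, they set it against how far the difference between treatments varied between the 2 numbers. In both cases the tests draw the spread of each gene toward that of the other tested genes. Neither kind of p-value is known to measure the spread between separate cultures. If the number stands for the cell line, as in the MeRIP-seq titles, each n = 2 is 1 library of each line, with no replicate within a line. Totals ranged from 18492273 to 23763098 counts. Of 7 squamous epithelial markers, 5 exceeded 1 CPM in each library, with a summed level of 563 to 3093 CPM with rapamycin and 669 to 4094 CPM in controls. The 5 leukocyte markers summed to at most 0.32 CPM and 2 of them had no count. The 5 fibroblast markers summed to between 27.7 and 48.0 CPM with rapamycin and between 8.75 and 35.8 CPM in controls, and 2 had no count. The 4 endothelial markers summed to between 1.46 and 44.1 CPM with rapamycin and between 1.71 and 30.7 CPM in controls, and 1 had no count. Their part in the results was not tested. In bulk RNA, fewer cells of a type and less RNA per cell cannot be told apart.

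The promoter sequences of the RefSeq table (GRCh38.p14, 250 bases before to 50 bases after a gene's start) held 9 of the 10 genes, and *NUPR1* was not among them. They are shown because ATF4 binds, together with C/EBP proteins, a composite of the letters TGATGCAA, and factors of the ATF family bind TGACGTCA. Both strands were searched, and every TGATGCAA is also a match to TGATGNAA. The 9 genes have 15 windows, and the share of all 27305 genes with the motif in any of their windows is given beside each. TGATGCAA was found in *CHAC1* only, against 1.08% of all genes (0.866% of all 35116 windows). The looser TGATGNAA was found in *CHAC1* and *ATF3*, against 4.46% of all genes (3.62% of windows). TGACGTCA was found in *PPP1R15A* only, against 2.25% of all genes (1.85% of windows). The matches, in capitals, lie 209 bases before the start of *CHAC1* at chr15:40953251-40953280, 191 bases before a start of *ATF3* at chr1:212565205-212565234 and 58 bases before the start of *PPP1R15A* at chr19:48872352-48872381, each given on the plus strand, on which the gene lies. In *CHAC1* the match reads on the minus strand.
CHAC1: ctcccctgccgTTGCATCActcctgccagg
ATF3: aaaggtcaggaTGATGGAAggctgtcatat
PPP1R15A: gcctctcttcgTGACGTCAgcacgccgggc
These are matches of letters and not shown binding sites.

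The mRNA of 7 of the 10 genes was measured as higher with rapamycin in both numbered pairs. By sign alone *NUPR1* would make 8, with 5 counts against 0 in number 1, and by sign alone 34.6% of all tested genes showed this pattern. None of the 10 was lower in both pairs, against 5034 of all 15826 tested genes. In 5 genes (*ATF4*, *DDIT3*, *ATF3*, *TRIB3* and *CEBPB*) both rapamycin libraries also lay above both controls, as in 15% of all tested genes. In the unpaired comparison of treatments by edgeR's quasi-likelihood test, 0 of the 10 genes passed an adjusted p of 0.05 (each had an adjusted p of 0.9997), as did 0% of all tested genes, and 4 of the 10 had an unadjusted p under 0.05, against 1.36% of all tested genes that were higher at that level. With DESeq2 in place of edgeR, *ATF3* alone of the 10 passed. With a replicate block, a term for the library number, 6 of the 10 passed as higher on counts in both pairs (*DDIT3*, *ATF3*, *TRIB3*, *DDIT4*, *PPP1R15A* and *CEBPB*), against 4.65% of all tested genes, and none passed as lower, against 3.5%. *NUPR1* passed as well, which makes 7, but on 1 library per treatment in number 2, and with at least 10 counts required in every library it was not tested. The median log2 fold change of the 10 genes was 1.42 without and 1.48 with the block, and that of all tested genes was 0.06 and 0.05. As the 10 genes were chosen with earlier results of these data known, their counts beside the shares of all genes are a description only. The adjusted p-values below are from edgeR's quasi-likelihood test with that block. They assume that the numbers pair the libraries, as the MeRIP-seq titles and the likeness of the libraries have it, and the RNA-seq cell line labels give another pairing of lines and treatments.

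**Figure D1:**
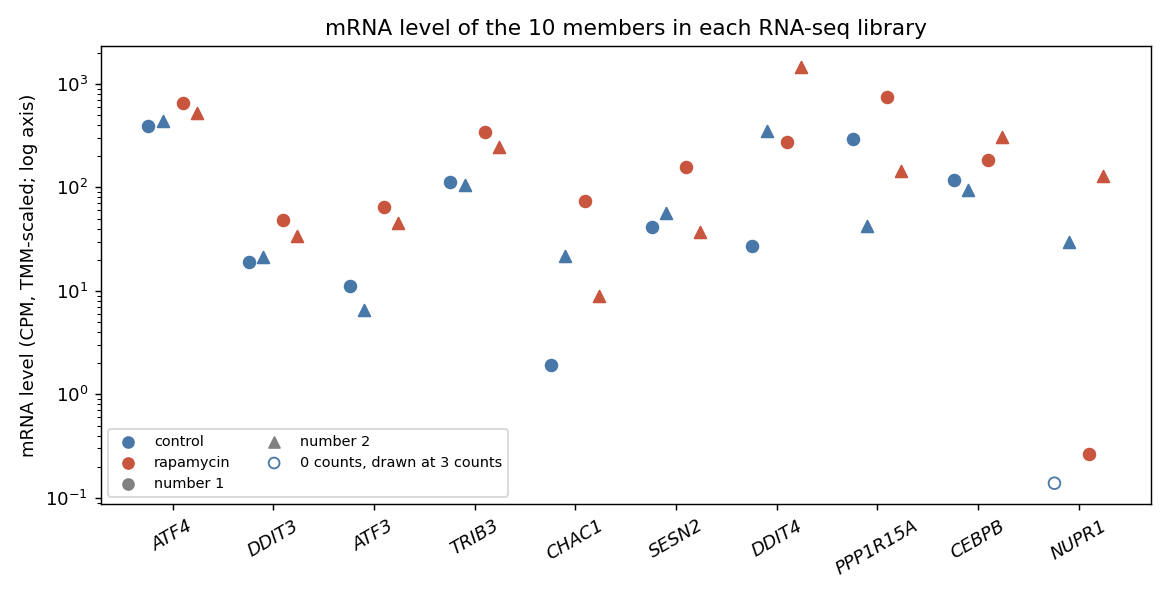
The mRNA level of the 10 genes in each of the 4 RNA-seq libraries, in CPM on a log axis, with controls in blue, rapamycin in red, number 1 as circles and number 2 as triangles, and an open circle where a library had 0 counts, drawn at the level of 3 counts. *NUPR1* sat at or below 0.26 CPM in both libraries of number 1, and within each treatment *DDIT4* was higher in number 2 and *PPP1R15A* in number 1.

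Among the transcription factors, *ATF4* (ENSG00000128272), the central activator of the response, stood at 658 and 528 CPM in rapamycin libraries 1 and 2 and at 392 and 435 CPM in control libraries 1 and 2. The groups did not overlap, with a mean of 593 ± 91.9 CPM with rapamycin and 414 ± 30.7 CPM in controls (SD, n = 2 each). Its log2 fold change of 0.51 (standard error 0.26) did not pass the threshold with the block (edgeR adjusted p = 0.231).

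*ATF3* (ENSG00000162772), a stress-induced bZIP factor that acts downstream of ATF4, stood at 65.1 and 45.04 CPM with rapamycin and at 11.1 and 6.59 CPM in controls. Every rapamycin value was above every control value, and the numbered pairs moved alike, by 5.87-fold in number 1 and 6.84-fold in number 2. It rose by a log2 fold change of 2.66 (standard error 0.32, edgeR adjusted p = 1.25e-05 with the block), which gave it the lowest adjusted p of the 10. Without the block its log2 fold change was 2.64 (standard error 0.47), and its adjusted p was 0.9997 in edgeR and 0.00286 in DESeq2.

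*DDIT3* (ENSG00000175197), which encodes CHOP, a factor tied to cell death under lasting stress, stood at 48.2 and 33.6 CPM with rapamycin and at 18.9 and 21.2 CPM in controls. The groups did not overlap, and the log2 fold change was 1.01 (standard error 0.31, edgeR adjusted p = 0.0433 with the block). This call was lost with DESeq2 and the block, where the adjusted p was 0.0873.

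*CEBPB* (ENSG00000172216), a C/EBP factor that can pair with ATF4, stood at 186 and 304 CPM with rapamycin and at 117 and 94.8 CPM in controls. The groups did not overlap, and the rise was 1.58-fold in number 1 and 3.20-fold in number 2. The log2 fold change was 1.17 (standard error 0.28, edgeR adjusted p = 0.0120 with the block).

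Both feedback genes rose in the fit with the block. *TRIB3* (ENSG00000101255), a pseudokinase that binds ATF4 and restrains it, stood at 343 and 247 CPM with rapamycin and at 113 and 106 CPM in controls. Its control libraries lay close together (mean 109 ± 5.48 CPM, SD, n = 2) and well below both rapamycin libraries (mean 295 ± 67.9 CPM, SD, n = 2), and the log2 fold change was 1.41 (standard error 0.26, edgeR adjusted p = 0.00184 with the block).

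*PPP1R15A* (ENSG00000087074), also known as GADD34, brings a phosphatase to eIF2 and so ends the response. It stood at 748 and 143 CPM with rapamycin and at 294 and 42.8 CPM in controls. The groups overlapped, because both libraries of number 1 were high and both of number 2 were low, with 6.87 times more mRNA in number 1 than in number 2 among the controls. Within the pairs it was 2.54-fold and 3.35-fold higher with rapamycin, and the log2 fold change with the block was 1.54 (standard error 0.26, edgeR adjusted p = 0.0012).

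Of the mTORC1 inhibitors, *DDIT4* passed the test with the block and *SESN2* did not. *DDIT4* (ENSG00000168209), which encodes REDD1, an activator of the TSC complex that holds mTORC1 down, stood at 272 and 1465 CPM with rapamycin and at 27.3 and 348 CPM in controls. The groups overlapped, since number 2 exceeded number 1 by 12.7-fold in controls and by 5.39-fold with rapamycin. Within the pairs it was 9.95-fold and 4.21-fold higher with rapamycin, and the log2 fold change with the block was 2.69 (standard error 0.31, edgeR adjusted p = 6.65e-05). *SESN2* (ENSG00000130766), a leucine sensor that restrains mTORC1 through GATOR2, stood at 156 and 37.5 CPM with rapamycin and at 41.8 and 56.2 CPM in controls. Rapamycin library 1 was the highest of the 4 and rapamycin library 2 the lowest, and the log2 fold change with the block was 0.66 (standard error 0.82, edgeR adjusted p = 0.709). The difference between *DDIT4* and *SESN2* was not tested.

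*CHAC1* (ENSG00000128965), an enzyme that degrades glutathione and a target of the ATF4 and CHOP axis, stood at 73.4 and 8.94 CPM with rapamycin and at 1.94 and 21.6 CPM in controls. Its highest and its lowest value were both in number 1, on 1396 and 42 counts, where rapamycin was 37.8-fold above control. In number 2 the order was turned, with 163 counts in the rapamycin library, 511 in the control and a rapamycin level of 0.41 times the control. The log2 fold change with the block was 1.84 with a standard error of 4.01 (edgeR adjusted p = 0.862), and the difference between the pairs has no error of its own with 1 library each.

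*NUPR1* (ENSG00000176046), a small chromatin protein induced by stress, was counted almost only in number 2, at 128 CPM with rapamycin and 29.95 CPM in control. In number 1 it had 5 counts with rapamycin (0.26 CPM) and none in control, where a count of 0 allows up to 0.139 CPM at 3 counts, in counting error alone. It passed the filter on low counts through number 2 only. Its log2 fold change with the block, 2.21 (standard error 0.42, edgeR adjusted p = 0.0022), rests on 1 library per treatment in number 2, in which it was 4.28-fold higher with rapamycin.

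**Figure D2:**
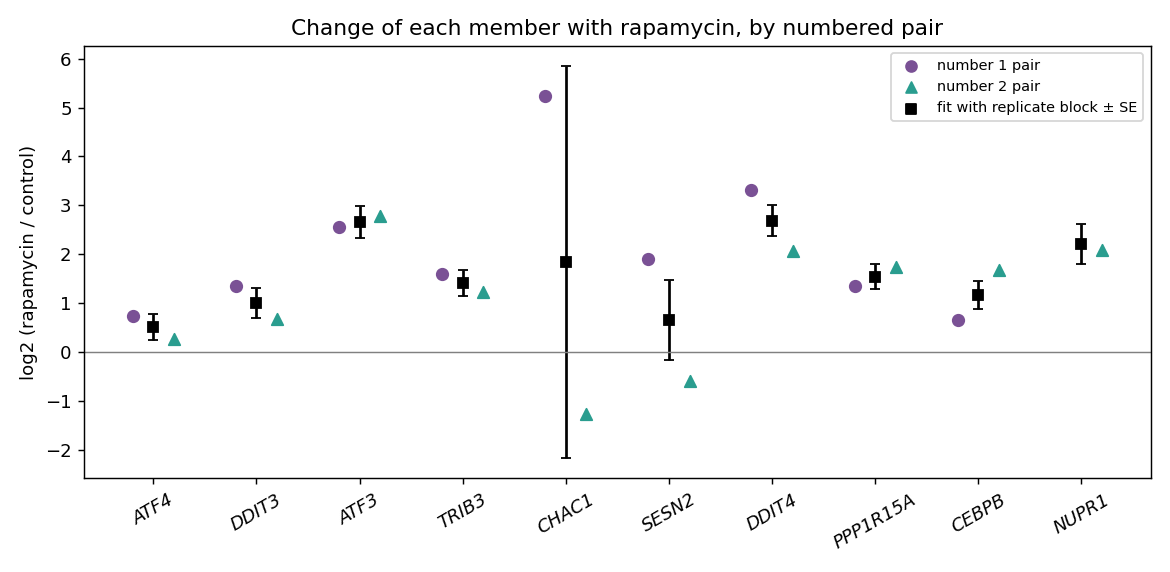
The log2 ratio of rapamycin to control for each gene, in the number 1 pair (circles), in the number 2 pair (triangles) and as fitted with the replicate block (squares, with bars of 1 standard error). *CHAC1* and *SESN2* moved in opposite directions in the pairs, at 5.24 and −1.27 and at 1.90 and −0.58; *NUPR1* has no circle because number 1 held 5 counts and 0 counts.

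The other genes of the pathway were described from 3 lists that hold none of the 10 genes. These lists too were chosen with earlier results of these data known, so their counts beside the shares of all genes are a description only. The eIF2 apparatus (the eIF2 kinases, eIF2, its exchange factor eIF2B, phosphatase subunits and their regulators) was measured on 23 genes, of which 0 passed the threshold without the block. With the block 0 passed as higher, which for 23 genes is near the 4.65% of all tested genes, and 1 passed as lower. The median log2 fold change was −0.12. That 1 of 23 is near the 3.5% of all tested genes that passed as lower, so the fall is given as a value of its gene and not of the list. *EIF2S1*, the subunit of eIF2 that the stress kinases phosphorylate, fell from 261 and 131 CPM in control libraries 1 and 2 to 170 and 52.4 CPM with rapamycin, a log2 fold change of −0.97 (standard error 0.27, edgeR adjusted p = 0.0249 with the block). Its groups overlapped, since the lower control lay below the higher rapamycin library. *PPP1CC*, a catalytic subunit of protein phosphatase 1, had a log2 fold change of −0.83 (edgeR adjusted p = 0.063 with the block), *IMPACT*, an inhibitor of the amino acid sensor GCN2, one of 0.66 (0.171 by the same test) and *PPP1CB*, another catalytic subunit, one of −0.53 (0.253 by the same test).

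Of 33 further targets of ATF4 and CHOP, 31 were tested. Without the block 0 passed, and 10 had an unadjusted p under 0.05 (9 of them higher with rapamycin), against 446 of all 15826 tested genes (216 of them higher). With the block 16 passed as higher, against 4.65% of all tested genes, and 1 as lower, against 3.5%, 14 did not pass, and the median log2 fold change was 1.12. *GDF15*, a secreted stress signal, stood at 47.0 and 239 CPM with rapamycin and at 8.13 and 33.0 CPM in controls, a log2 fold change of 2.70 (standard error 0.28, edgeR adjusted p = 2.18e-06 with the block). *SLC7A11*, the cystine carrier that supplies glutathione synthesis, stood at 99.6 and 102 CPM with rapamycin and at 20.4 and 11.4 CPM in controls, a log2 fold change of 2.72 (standard error 0.30, edgeR adjusted p = 6.06e-06 with the block). Its groups were far apart, and DESeq2 called it without the block too (adjusted p = 0.00031). *KLHL24*, a ubiquitin ligase adaptor, rose by 2.63 on the log2 scale (edgeR adjusted p = 0.0012 with the block).

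By sign alone, 27 of the 31 tested genes of that list were higher with rapamycin in both numbered pairs, against 34.6% of all tested genes. Lower in both pairs were 2, against 5034 of all 15826 tested genes, and 1 of these 2 passed as lower with the block. This was *ATF5*, a bZIP factor whose mRNA is translated under stress in the manner of *ATF4*. It stood at 16.7 and 9.55 CPM with rapamycin and at 75.9 and 42.1 CPM in controls. Both rapamycin libraries lay below both controls, as in 16.5% of all tested genes. The change was alike in both pairs (−2.19 and −2.14 on the log2 scale), and the log2 fold change was −2.16 (standard error 0.30, edgeR adjusted p = 0.000158 with the block).

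The XBP1 and ATF6 arms of the unfolded protein response, which sense misfolded protein in the endoplasmic reticulum beside the eIF2 kinase PERK, were measured on 18 genes. Without the block 0 passed, and with it 4 passed as higher, against 4.65% of all tested genes. With the block 0 passed as lower, against 3.5% of all tested genes, and 14 did not pass. The median log2 fold change was 0.08. *XBP1*, the factor activated by IRE1, stood at 239 and 232 CPM with rapamycin and at 56.3 and 88.2 CPM in controls (log2 fold change 1.74, standard error 0.27, edgeR adjusted p = 0.000485 with the block). *ERN1*, which encodes IRE1, *HERPUD1*, a factor of protein degradation from the endoplasmic reticulum, and *DNAJB9*, a chaperone, rose by 1.58, 1.62 and 1.52 on the log2 scale (edgeR adjusted p = 0.00207, 0.00376 and 0.0186 with the block).

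**Figure D3:**
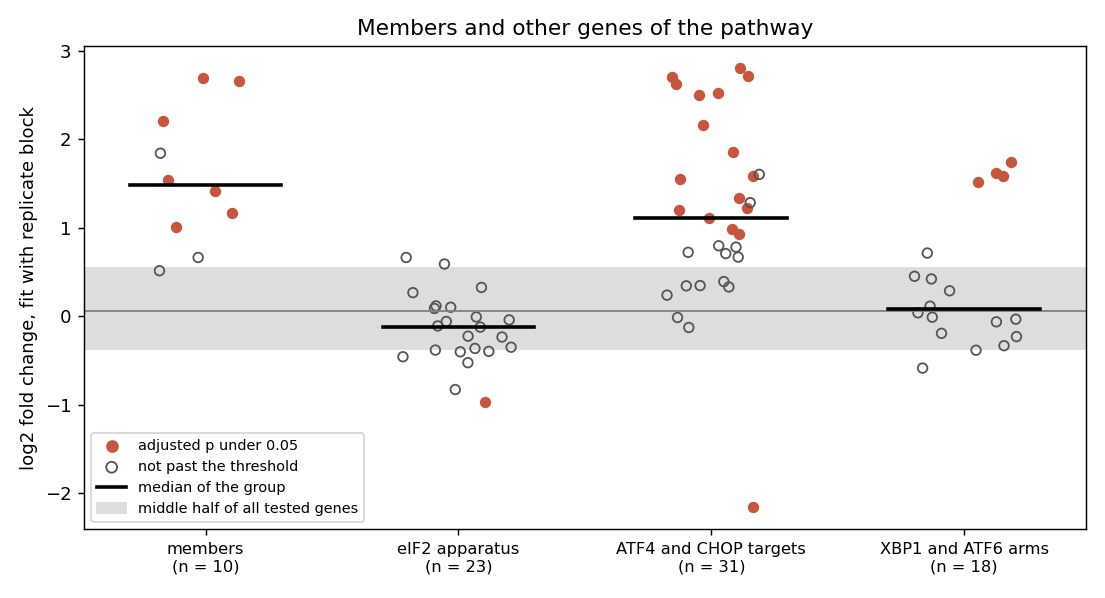
The log2 fold change fitted with the replicate block for the 10 genes and for the tested genes of each list, with those past an adjusted p of 0.05 filled in red and the median of each group as a bar; the grey band is the range from the 25th to the 75th percentile of all tested genes and the thin line their median. The medians were 1.48 for the 10 genes, −0.12 for the eIF2 apparatus, 1.12 for the ATF4 and CHOP targets and 0.08 for the XBP1 and ATF6 arms.

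In the m6A data, 7 of the 10 genes had a peak in at least 1 of the 4 lists, 25 peaks in all, and *DDIT3*, *ATF3* and *NUPR1* had none. Each list comes from 1 pair of immunoprecipitated RNA and input, so no peak value has a replicate and no test was made. The values are the authors' fold enrichment over input, and a percentile is the place of a peak among all peaks of its own list by that value. The depth behind the peaks is unknown. HSC3 held 7 peaks of these genes without and 9 with rapamycin, and CAL33 held 4 and 5. Of the 25 peaks, 16 were annotated as coding sequence (CDS), 7 as 3′ UTR and 2 as 5′ UTR, their lengths ran from 120 to 597 bp, and all 25 lay inside the RefSeq span of their gene on the plus strand. Positions are in hg38.

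*DDIT4* (chr10:72273924-72276036) and *CEBPB* (chr20:50190583-50192690) had peaks in all 4 lists, as had 9.64% of the 6163 genes with a peak in any list. The *CEBPB* CDS peak at chr20:50191563-50191978 in HSC3 control cells had a fold enrichment of 25.9, and the overlapping peak in HSC3 rapamycin cells, at chr20:50191593-50191889, had 8.59. In CAL33 cells this CDS peak had a fold enrichment of 11.8 without rapamycin and 2.45 with it. The *CEBPB* 3′ UTR peak went from 14.9 to 10.1 in HSC3, over the same bases at chr20:50192156-50192600, and from 18.9 to 10.5 in CAL33.

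The *DDIT4* CDS peak at chr10:72274814-72275052 in HSC3 control cells had a fold enrichment of 82.2, and the overlapping peak with rapamycin, which ran on to position 72275410, had 37.3. In CAL33 the fold enrichment was 6.33 without rapamycin, in a peak annotated as CDS, and 4.74 with it, in an overlapping peak annotated as 3′ UTR. On these genes 6 control peaks overlapped a peak of the same line under rapamycin, 3 in each line, and all 6 had the lower value with rapamycin, by fold enrichment and by percentile. Among all overlapping pairs, 51.8% in HSC3 and 59.7% in CAL33 had the lower fold enrichment with rapamycin, and 50.2% and 53.2% had the lower percentile. The 6 pairs come from 2 genes and share their libraries, and both mRNAs rose with rapamycin in the fit with the block. The part of mRNA level in the fold enrichment was not tested.

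**Figure D4:**
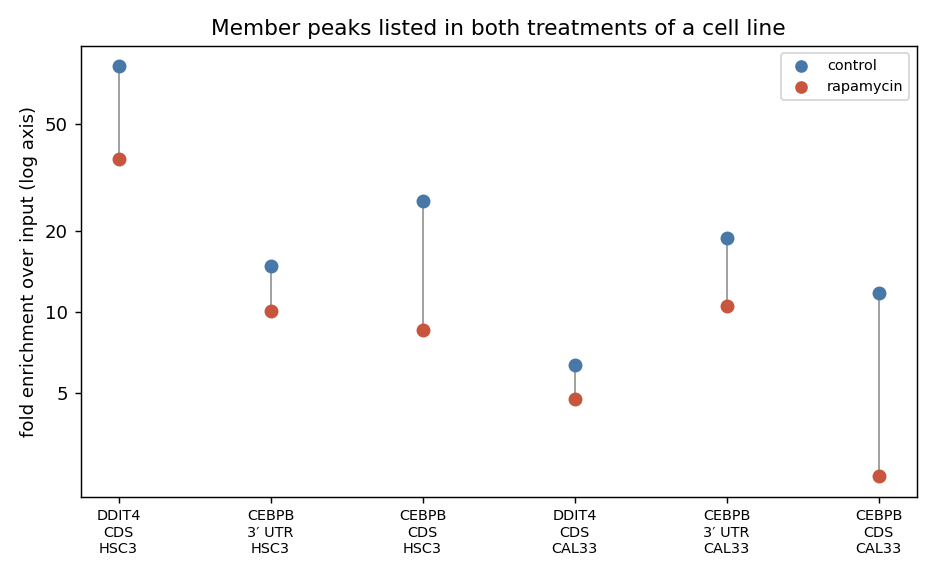
The fold enrichment over input, on a log axis, of the 6 member peaks that overlap between control (blue) and rapamycin (red) of a cell line, named by gene, by region of the control peak and by cell line. Each rapamycin value is below its control, from 82.2 to 37.3 for *DDIT4* in HSC3 and from 11.8 to 2.45 for the *CEBPB* CDS peak in CAL33.

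*CHAC1* (chr15:40953471-40956512) had a CDS peak in both rapamycin lists and in neither control list, as had 3.25% of the genes with a peak in any list. It ran over chr15:40955654-40955863 in HSC3, with a fold enrichment of 10.9, and over chr15:40955595-40955833 in CAL33, with 26.8, and the peaks shared 180 bp. They stood at percentiles 19.0 and 42.5 of their lists. The mRNA of *CHAC1* was higher with rapamycin in number 1 and lower in number 2 of the RNA-seq libraries.

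*PPP1R15A* (chr19:48872421-48876058) showed the reverse, with a CDS peak in both control lists and in neither rapamycin list, as had 4.2% of the genes with a peak. Its peak lay at chr19:48874243-48874362 in HSC3, with a fold enrichment of 4.08, and at chr19:48873797-48874214 in CAL33, with 59.6, and these did not overlap. They stood at percentiles 5.64 and 57.5 of their lists, so the HSC3 peak was among the weakest of its list by fold enrichment. The mRNA of *PPP1R15A* was higher with rapamycin in both numbered pairs.

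**Figure D5:**
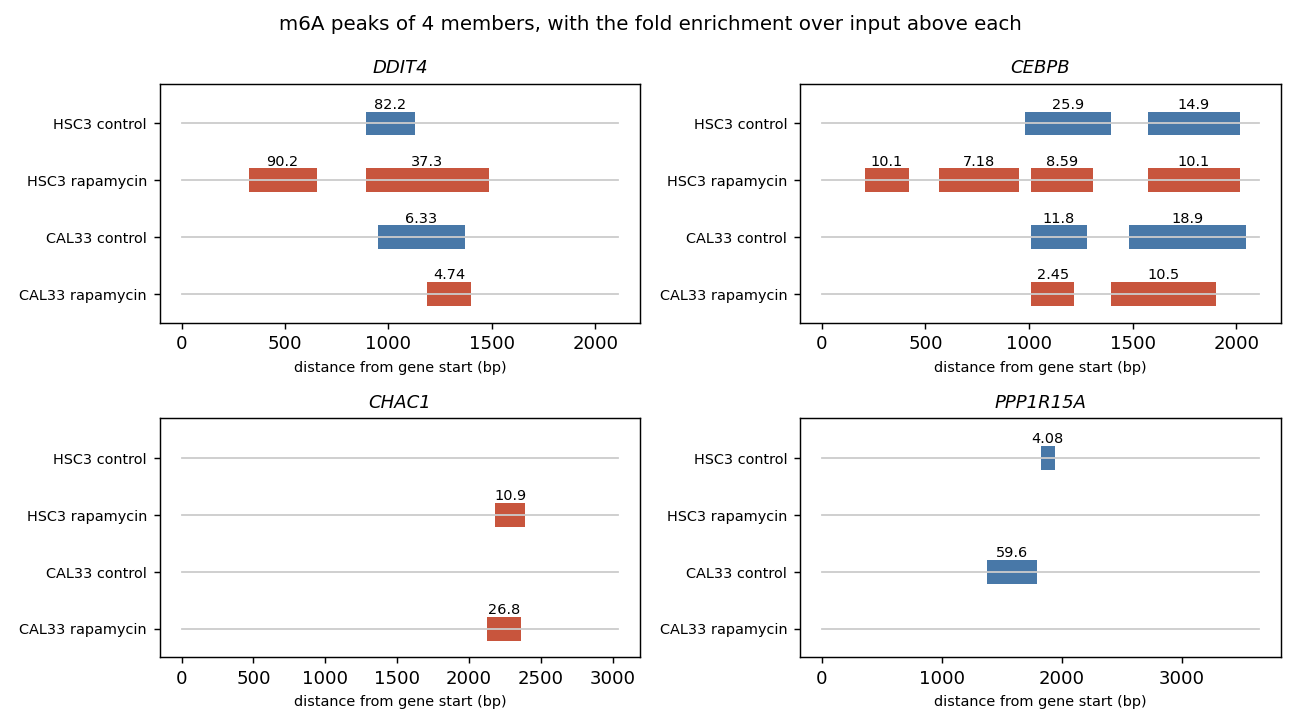
The m6A peaks of *DDIT4*, *CEBPB*, *CHAC1* and *PPP1R15A* in the 4 lists, drawn by distance in bp from the RefSeq gene start, with controls in blue, rapamycin in red and the fold enrichment over input above each peak. *CHAC1* has peaks in the rapamycin lists only and *PPP1R15A* in the control lists only.

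*TRIB3* (chr20:380760-397559) had peaks at different places in HSC3. Without rapamycin it had a CDS peak at chr20:396484-396663, with a fold enrichment of 179, and a 3′ UTR peak at chr20:396813-397081, with 10.7. With rapamycin it had a 5′ UTR peak only, at chr20:380890-381099, with 80.7. In CAL33 it had no peak without rapamycin and a CDS peak with a fold enrichment of 6.92 with it, at chr20:396425-396604, which shared 121 bp with the CDS peak of HSC3 control cells.

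Further peaks were listed in HSC3 only. With rapamycin, *CEBPB* gained a 5′ UTR peak (fold enrichment 10.1) and a CDS peak at chr20:50191149-50191534 (7.18), and *DDIT4* gained a CDS peak at chr10:72274248-72274576 (90.2). *SESN2* (chr1:28259518-28282491) had a 3′ UTR peak with rapamycin at chr1:28280825-28281003, with a fold enrichment of 4.92. *ATF4* (chr22:39520559-39522686) had a CDS peak in HSC3 control cells at chr22:39521817-39521937, and its fold enrichment of 1.15 was the lowest in that list of 3930 peaks. In all, 3 of 7 control peaks of these genes in HSC3 overlapped a rapamycin peak, against 28.2% of all control peaks of that line, and 3 of 4 did in CAL33, against 25.1%. Of the rapamycin peaks, 3 of 9 in HSC3 overlapped a control peak, against 28.4% of all, and 3 of 5 did in CAL33, against 29.9%.

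The 5′ UTR peak of *CEBPB* in HSC3 rapamycin cells, at chr20:50190793-50191001, was the only member peak whose sequence could be read in part with a match to GGAC, the core of the sequence at which m6A is placed. Its first 87 bases, to position 50190879, lie in a promoter window of RefSeq, and the sense strand holds GGAC at 2 places there, shown in capitals at chr20:50190844-50190873.
CEBPB: gcgcacgGGACtgggaaggGGACccacccg
Over all promoter windows, 29.3% hold GGAC in a stretch of the same length and place. The 55 bases of the *TRIB3* 5′ UTR peak that lie in a promoter window hold none, against 18.1% of windows that hold it in that stretch.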

How the data were processed

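The RNA-seq values are whole-number read counts for each Ensembl gene, as deposited, not normalized, and named as HTSeq counts. For MeRIP-seq, the authors deposited a peak list for each immunoprecipitated and input pair, giving each peak's fold enrichment (a ratio over input), p-value and false discovery rate, the latter on a log10 scale. The submitters' processing notes name hg38, cutadapt 2.5, HISAT2 2.1.0, featureCounts 1.6.3 and HOMER 4.10.4 without saying what each did. The use of strand in counting and the peak caller's settings are not given in the sources used here.

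The count tests used edgeR 4.0.16 (R 4.3.3): filterByExpr, TMM and the robust quasi-likelihood test, with Benjamini-Hochberg adjustment over 15826 genes at 0.05. CPM values are scaled by TMM (marker sums by total counts), fold changes within a numbered pair are ratios of CPM, and standard errors are the log2 fold change divided by the root of F. Peaks were handled in Python 3.11.15, and an overlap is at least 1 bp on the same strand. The edgeR fits with and without the block were tried on simulated counts, and the other steps were not. The replicate number was checked for pairing: the difference between numbers 1 and 2 correlated at 0.90 between treatments across 15826 genes. Genes are not independent replicates.

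The members and lists were chosen with earlier results of these data known. The genes named are the 10 members and, from each list, the 4 genes with the lowest p in the fit with the block. The alternatives were that block, DESeq2 1.42.0, upper-quartile normalization, other filters on low counts, each library left out, stricter peaks and other overlaps. No genome was used, so sequences come from RefSeq promoters, and the other peak sequences are not analysed here. Antisense and overlapping genes cannot be told apart where counting ignored strand.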

Additional observations from a re-analysis of the deposited data

Results flagged for a closer look

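*CHAC1* and *SESN2* moved in opposite directions in the numbered pairs of RNA-seq libraries, which is what singled them out. The log2 difference between rapamycin and control was 5.24 in number 1 and −1.27 in number 2 for *CHAC1*, and 1.90 and −0.58 (−0.585) for *SESN2*. The difference between the pairs was not tested, since each pair has 1 library of each treatment.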

How the results depend on the processing

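The calls depended on the replicate block. It raised the number of genes past the threshold from 0 to 736 higher and 554 lower, of the 10 members from 0 to 7 higher (6 without *NUPR1*, which rests on number 2), of the eIF2 apparatus from 0 to 1 lower, of the ATF4 and CHOP targets from 0 to 16 higher and 1 lower, and of the XBP1 and ATF6 arms from 0 to 4 higher. With the block and upper-quartile normalization the counts in the same order were 805 and 360, 7, 1, 18 and 1, and 4. With the block and no filter on low counts they were 849 and 757, 7, 2, 18 and 1, and 4. With the block and at least 10 counts in every library they were 725 and 511, 6 (*NUPR1* was not tested), 1, 18 and 1, and 4. With the block and DESeq2 they were 418 and 412, 6 (*DDIT3* lost), 1, 17 and 1, and 5. DESeq2 without the block gave 19 and 17 genes, 1 member (*ATF3*), 3 ATF4 and CHOP targets and 1 gene of the XBP1 and ATF6 arms, all higher. The share of higher calls was 57.1% with the block and 69.1% with the block and upper-quartile normalization, which moved the median of all genes from 0.05 to 0.13. Without the block, upper-quartile normalization and both other filters gave 0. Genes with an unadjusted p under 0.05 numbered 446 without and 3736 with the block, and 788 with DESeq2 without it. Under the 5 settings with the block, the log2 fold changes of the members stayed positive.

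Each library was left out of the fit without the block, in which 0 genes passed with all libraries present. With a library left out, an arm has 1 sample that is assumed to vary like the other arm, and a library loses its numbered partner. The log2 fold change then ranged from −0.42 (−0.419) to 4.401 for *CHAC1*, from −0.41 (−0.411) to 1.65 for *SESN2*, from −0.26 (−0.257) to 3.33 (3.325) for *PPP1R15A*, from −5.83 to 13.3 for *NUPR1* and, among the other genes named, turned sign for *PPP1CB* only, which ranged from −1.28 (−1.278) to 0.15 (0.145, without rapamycin replicate 1). Moves are judged against the log2 fold change from all libraries without the block, and not from the lowest to the highest value. By that measure it also moved by over 1.5 times for *DDIT4* (0.51 to 4.98), *ATF4* (0.33 to 0.65), *CEBPB* (0.79 to 1.495), *EIF2S1* (−1.93 to −0.22), *PPP1CC* (−1.27 to −0.44), *IMPACT* (0.33 to 0.94), *GDF15* (1.17 to 4.13), *KLHL24* (1.81 to 3.38) and *HERPUD1* (1.12 to 2.05), with no change of sign. *DDIT3*, at 0.72 to 1.24, moved less by that measure. Of the reversals, that of *NUPR1* came without rapamycin replicate 2 and the others without rapamycin replicate 1. With the block no degree of freedom is left once a library is removed, so that was not run.

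The number of member peaks and of overlapping pairs stayed within 1.5 times under a false discovery rate of 0.05, a fold enrichment of 4 and an overlap of 50% of the shorter peak. Divided by the median of its list, each of the 6 overlapping pairs kept the lower value with rapamycin, the smallest log2 ratio being −0.17 for *DDIT4* in CAL33. The depth of the m6A libraries is unknown and limits those values to an unknown degree.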
